A study of Arabidopsis thaliana with 8 samples.

Results

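Messenger RNA levels of 52 genes for the synthesis, export and control of wax, cutin and suberin were compared between air and ethylene in dark-grown seedlings of 2 Arabidopsis thaliana double mutants. The members were named by function: the β-ketoacyl-CoA synthases (KCS), the ECERIFERUM (CER) genes, the glycerol-3-phosphate acyltransferases (GPAT), cytochromes P450 of the CYP86 family with CYP77A6, LACS1 and LACS2, lipid exporters and regulators. They were then selected on a measured value, since a gene with under 10 counts summed over the 8 libraries was dropped. Of the 36799 genes in the count tables, 52 were listed and 50 passed that threshold. SHN1 (AT1G15360) with 0 counts and MYB106 (AT3G01140) with 1 count lay just outside it. MAH1 (AT1G57750) with 18 counts, KCS18 (AT4G34520) with 27 and KCS17 (AT4G34510) with 36 lay just inside it, but were too low for the expression filter. This left 47 members among the 20193 genes tested.

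The plant surface is sealed by the cuticle, a polyester of hydroxylated fatty acids called cutin that is embedded in and covered by wax. Wax is built in the epidermis from very-long-chain fatty acids, which the elongase complex of the endoplasmic reticulum makes by adding carbon pairs, and which are then turned into alkanes, alcohols and esters. Suberin is a related polyester with phenolics that coats the walls of the root endodermis and of wounded or protective tissues. Cutin and suberin monomers are made by cytochromes P450 that add a hydroxyl group to the chain and by GPAT enzymes that join it to glycerol.

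Both lines carry mutations in the pyruvate dehydrogenase complex (PDC), the multienzyme complex that turns pyruvate into acetyl-CoA. The line labelled e1-2-2 e2-2 #17 is called e1e2 here and the line labelled e2-2 e3-2-2 #67 is called e2e3, so all libraries carry the e2-2 allele. Each genotype is represented by 1 numbered line. Seedlings stood for 3 days in the dark in hydrocarbon-free air and then received either 10 ppm ethylene or hydrocarbon-free air. The number of hours and the loci of the alleles are not stated in the labels, so the mutated genes were not checked. Wild-type libraries were not analysed here. The 4 groups of line and gas held 2 libraries each of whole-seedling poly(A) RNA, and whether the replicates came from separate plantings is not stated. The p-values thus measure spread between these libraries only, and for most genes they rest mainly on spread shared by genes.

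The libraries held 11522823 to 18601837 counts, and log CPM (CPM being counts scaled to a common library size after TMM, a correction for library composition) of replicates correlated across genes at 0.991 to 0.993. Levels below are given in CPM, and comparisons between genes use CPM per kilobase of exon. A change was called at an adjusted p under 0.05 in edgeR's quasi-likelihood F-test, adjusted by the Benjamini-Hochberg method over all 20193 genes. Changes are log2 differences with their standard error (SE) from that fit, and a negative value is lower in ethylene, or lower in e2e3 where the lines are compared.

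Most of the genes were lower in ethylene than in air in both lines. In e1e2, 37 of 47 tested members fell and 2 rose, where 20.9% of all tested genes fell and 18.3% rose. In e2e3, 43 fell and 1 rose, against 23.6% and 20.3% of all genes. The median log2 change of the members was -0.77 in e1e2 and -0.83 in e2e3, while that of all tested genes was 0.01 and 0.007. A set of 37 members fell in both lines, and 15 of these fell at least 2-fold in both. KCS2, named after its values were seen, was the 1 member called higher in both lines. Leaving out any 1 library gave 36 to 37 lower calls in e1e2 and 39 to 43 in e2e3, and DESeq2 gave 35 and 38.

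Summed over all 52 members, the level was 6530 and 6415 CPM in e1e2 kept in air and 4067 and 4093 CPM in e1e2 ethylene. It was 7790 and 8026 CPM in e2e3 air and 4417 and 4428 CPM in e2e3 ethylene. All 4 ethylene libraries lay below all 4 air libraries, and e2e3 lay above e1e2 in each gas, by more in air than in ethylene. In whole seedlings, fewer cells of a type and less RNA per cell cannot be told apart. The epidermis was represented by ATML1 and PDF2, homeodomain factors that specify it, and by PDF1, a protein of the outer cell layer. Their summed level was 807.4 and 802.6 CPM in e1e2 air, 446.8 and 444.8 in e1e2 ethylene, 947.3 and 947.6 in e2e3 air, and 487.0 and 483.2 in e2e3 ethylene. By edgeR, in both lines 2 of these 3 markers were lower in ethylene and ATML1 was higher. In the authors' deposited DESeq2 values ATML1 did not pass in e2e3 (adjusted p = 0.213). PDF1 fell by 1.40 on the log2 scale in e1e2 and 1.49 in e2e3, PDF2 fell by 0.31 and 0.34, and ATML1 rose by 0.28 and 0.11. Over the 8 libraries PDF1 held 49725 counts, ATML1 15105 and PDF2 11540, so the sum mostly follows PDF1. The part of epidermal cell content in the changes was not tested.

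**Figure D1:**
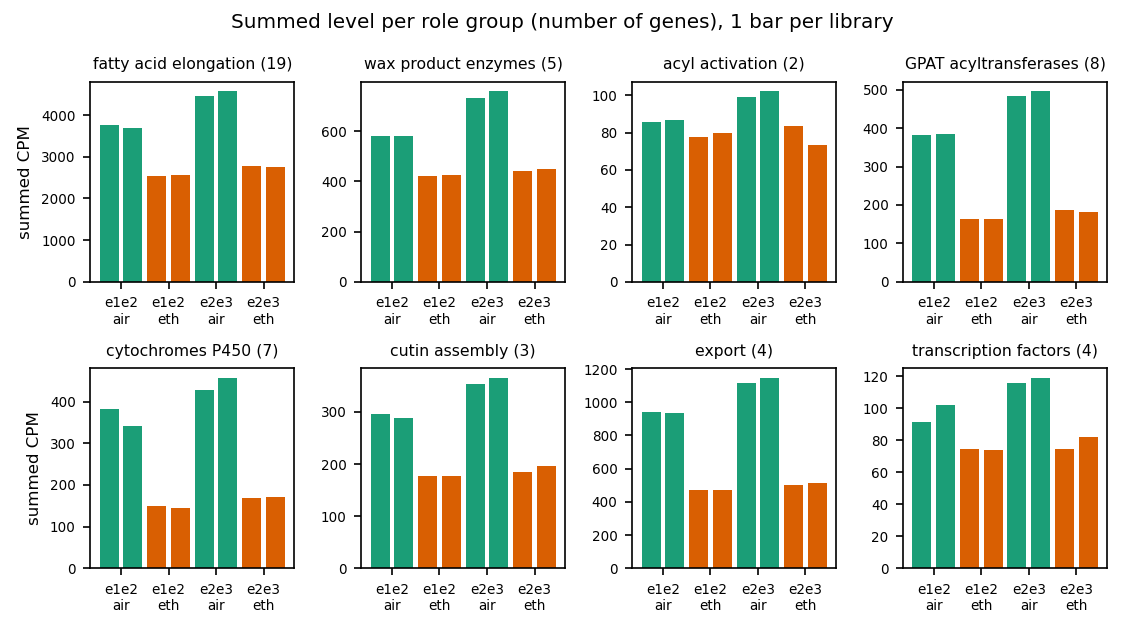
Summed level in CPM (vertical axes, each starting at 0) of the members of 8 role groups, with the number of genes in brackets and 1 bar for each of the 8 libraries, air in green and ethylene in orange. In all groups the ethylene bars of a line lie below its air bars, and the fatty acid elongation group is the highest, with 3770 and 3695 CPM in e1e2 air.

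The promoters of the members were read because the genes moved together. RefSeq assembly TAIR10.1 was used, after all 52 members were found to have the same start and end in its gene table as in the count tables. The window ran from 250 bases before to 50 bases after each gene's start, and motif letters were searched on both strands. The L1 box TAAATGNA, known as a target of the ATML1 and PDF2 class in epidermal genes, stood in 13 of the 52 member windows (25%) and in 11.29% of 27443 windows of protein-coding genes. Its forms TAAATGCA or TAAATGTA stood in 8 members (15.4%) and in 5.1% of all windows. The letters ATGTATCT, bound by EIN3, the transcription factor at the end of the ethylene pathway, stood in 0 member windows and 1.42% of all. Their form with a free base, ATGNATCT, which includes them, stood in 5.8% of members and 5.24% of all. The GCC box GCCGCC of ERF factors stood in 1.9% and 2.58%, and the MYB letters ACCNACC in 9.6% and 7.4% and ACCNAAC in 26.9% and 17.18%. These shares describe letters in a window and were not tested.

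The 250 bases before the start are printed below, 5′ to 3′ on the gene's strand, with L1 box letters in capitals. ABCG11 is shown because it holds 2 matches in these bases. KCS9, KCS10 and CYP86A2 are shown as genes of elongation and cutin hydroxylation with 1 match each. GPAT3 is shown as the gene with the smallest adjusted p for ethylene, and holds none. All of the genes shown fell in both lines. Other members with a match did not: in e1e2 LACS1 was called higher and WSD1 and MYB96 did not pass the test, and KCS18 was not tested. The windows are chr1:6142152-6142401 (plus strand) for ABCG11, chr2:7050549-7050798 (plus) for KCS9, chr2:11173279-11173528 (minus) for KCS10, chr4:160393-160642 (plus) for CYP86A2 and chr4:846815-847064 (minus) for GPAT3.
ABCG11: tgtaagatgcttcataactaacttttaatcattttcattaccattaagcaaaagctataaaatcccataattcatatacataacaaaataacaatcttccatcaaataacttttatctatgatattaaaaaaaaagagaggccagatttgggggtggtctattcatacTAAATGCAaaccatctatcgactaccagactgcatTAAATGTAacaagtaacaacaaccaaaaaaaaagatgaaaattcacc
KCS9: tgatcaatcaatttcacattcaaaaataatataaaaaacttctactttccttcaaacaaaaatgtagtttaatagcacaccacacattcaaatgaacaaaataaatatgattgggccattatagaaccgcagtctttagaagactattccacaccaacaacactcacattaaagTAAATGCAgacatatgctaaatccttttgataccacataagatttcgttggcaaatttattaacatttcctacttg
KCS10: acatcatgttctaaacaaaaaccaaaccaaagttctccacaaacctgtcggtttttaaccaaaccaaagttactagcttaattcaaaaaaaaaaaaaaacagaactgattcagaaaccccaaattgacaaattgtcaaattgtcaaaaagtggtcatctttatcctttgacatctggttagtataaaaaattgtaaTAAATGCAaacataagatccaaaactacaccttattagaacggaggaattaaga
CYP86A2: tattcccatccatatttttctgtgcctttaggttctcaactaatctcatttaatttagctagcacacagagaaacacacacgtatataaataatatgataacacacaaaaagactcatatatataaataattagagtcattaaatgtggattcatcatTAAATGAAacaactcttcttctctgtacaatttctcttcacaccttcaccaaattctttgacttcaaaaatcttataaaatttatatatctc
GPAT3: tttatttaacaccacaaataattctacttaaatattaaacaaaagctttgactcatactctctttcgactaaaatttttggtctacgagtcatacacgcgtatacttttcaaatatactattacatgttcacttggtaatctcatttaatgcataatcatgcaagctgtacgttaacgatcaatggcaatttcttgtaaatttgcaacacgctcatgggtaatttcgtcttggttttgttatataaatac

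Fatty acid elongation supplies the chains for wax and suberin. Of its 19 members, 17 were tested; 12 fell and 1 rose in e1e2, and 15 fell and 1 rose in e2e3, with medians of -0.58 and -0.70. The KCS enzymes carry out the first, chain-extending step. KCS6 (AT1G68530, also known as CUT1 or CER6), the main condensing enzyme of stem wax, had the highest level per kilobase of the group, a mean of 305 CPM per kilobase in e1e2 air. The libraries held 813 and 782 CPM in e1e2 air, 447 and 457 in e1e2 ethylene, 1013 and 1024 in e2e3 air, and 514 and 511 in e2e3 ethylene. All 4 ethylene libraries lay below all 4 air libraries, and e2e3 in air was the highest group. The log2 change was -0.82 ± 0.035 in e1e2 (edgeR adjusted p = 3.26e-60) and -0.99 ± 0.034 in e2e3 (edgeR adjusted p = 2.11e-75).

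The steepest falls among the KCS genes were those of KCS12, KCS9 and KCS5. KCS12 (AT2G28630) had 27.5 and 29.0 CPM in e1e2 air, 7.81 and 8.79 in e1e2 ethylene, 32.7 and 32.4 in e2e3 air, and 10.1 and 10.9 in e2e3 ethylene. KCS9 (AT2G16280), which makes chains used in wax, cutin and suberin, had 118 and 112 CPM in e1e2 air, 38.2 and 39.4 in e1e2 ethylene, 132 and 134 in e2e3 air, and 40.7 and 43.7 in e2e3 ethylene. KCS5 (AT1G25450, also known as CER60), the close relative of KCS6, had 76.9 and 83.4 CPM in e1e2 air, 34.8 and 33.1 in e1e2 ethylene, 88.1 and 91.0 in e2e3 air, and 36.1 and 38.7 in e2e3 ethylene. For each of the 3, every ethylene library lay below every air library of both lines. KCS12 changed by -1.77 ± 0.12 in e1e2 and -1.64 ± 0.10 in e2e3 (edgeR adjusted p = 4.75e-35 and 2.7e-36). KCS9 changed by -1.57 ± 0.059 and -1.66 ± 0.056 (edgeR adjusted p = 3.3e-68 and 1.24e-76). KCS5 changed by -1.24 ± 0.066 and -1.26 ± 0.062 (edgeR adjusted p = 6.32e-46 and 1.37e-50).

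KCS3 (AT1G07720) fell more in e2e3 than in e1e2. It had 153 and 150.3 CPM in e1e2 air, 84.3 and 83.6 in e1e2 ethylene, 192 and 186 in e2e3 air, and 85.0 and 90.1 in e2e3 ethylene. The log2 change was -0.85 ± 0.049 in e1e2 and -1.11 ± 0.046 in e2e3 (edgeR adjusted p = 7.46e-42 and 1.07e-61). KCS1 (AT1G01120) and KCS20 (AT5G43760), the latter known from root suberin, fell as well, by 0.69 and 0.77 on the log2 scale in e1e2 and by 0.83 and 0.82 in e2e3. CER2 (AT4G24510), which helps KCS6 to reach the longest chains, fell by 0.61 and 0.72, with opposite-strand genes over 25.3% of its exonic bases. KCS10 (AT2G26250, also known as FIDDLEHEAD), KCS11 (AT2G26640) and KCS19 (AT5G04530) fell by 0.51 to 0.58 in e1e2 and by 0.58 to 0.70 in e2e3.

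The other enzymes of the elongase cycle moved less than most KCS genes. KCR1 (AT1G67730) reduces the product of KCS, PAS2 (AT5G10480) removes water and CER10 (AT3G55360) completes the round with a second reduction. KCR1 had 211 and 211 CPM in e1e2 air, 199.8 and 198 in e1e2 ethylene, 251 and 258 in e2e3 air, and 197 and 204 in e2e3 ethylene. The e1e2 change of -0.087 ± 0.041 did not pass the test (edgeR adjusted p = 0.0789), while e2e3 fell by 0.35 ± 0.039 (edgeR adjusted p = 3.02e-15). PAS2 had 201 and 204 CPM in e1e2 air, 177 and 169.6 in e1e2 ethylene, 243 and 249 in e2e3 air, and 184 and 182 in e2e3 ethylene. PAS2 fell in both lines, with log2 changes of -0.23 ± 0.041 and -0.43 ± 0.040 (edgeR adjusted p = 8.82e-07 and 5.7e-21). For both genes the ethylene and air libraries did not overlap within a line, though for KCR1 in e1e2 they lay close, at 198 and 199.8 against 211 CPM. CER10 changed by 0.094 in e1e2 and -0.094 in e2e3. Its e2e3 call, at an edgeR adjusted p of 0.0478, was lost under each of the 8 other settings and in 5 of 8 fits that left out a library, where the adjusted p was 0.0699 without e2e3 ethylene replicate 1, 0.09 without e1e2 ethylene replicate 1, 0.0903 without e1e2 ethylene replicate 2, 0.275 without e2e3 ethylene replicate 2 and 0.767 without e2e3 air replicate 2.

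Exceptions among the KCS genes were KCS2, KCS4 and KCS8, named after their values were seen. KCS2 (AT1G04220, also known as DAISY), which like KCS20 serves root suberin, had 37.9 and 47.6 CPM in e1e2 air, 61.6 and 58.6 in e1e2 ethylene, 46.2 and 45.3 in e2e3 air, and 57.8 and 54.6 in e2e3 ethylene. Its ethylene libraries lay above all air libraries, and it rose by 0.49 ± 0.069 in e1e2 and 0.30 ± 0.066 in e2e3 (edgeR adjusted p = 2.58e-10 and 4.29e-05). Opposite-strand genes cover 63.6% of its exonic bases and the counting did not use strand, so reads there cannot be assigned to 1 gene. By the program's default reads over more than 1 gene are left out, so its level rests on the other bases. KCS4 (AT1G19440) fell in e2e3, with a log2 change of -0.21 ± 0.070 (edgeR adjusted p = 0.0108), and this call was lost without e2e3 libraries (edgeR adjusted p = 0.0736 without e2e3 air replicate 2 and 0.155 without e2e3 ethylene replicate 2). The KCS4 call was also lost in DESeq2 and with scaling by library size alone. KCS8 (AT2G15090) changed by -0.012 ± 0.049 and 0.011 ± 0.047 and passed the test in neither line.

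KCS17 and KCS18 lie 442 bases apart on chromosome 4 and were too low to test. KCS18, also known as FAE1, makes the very-long-chain fatty acids of seed oil. It had 1 and 1 counts in e1e2 air, 10 and 12 in e1e2 ethylene, 0 and 0 in e2e3 air and 3 and 0 in e2e3 ethylene. The ratio of ethylene to air in e1e2 was 8.98 with an exact 95% interval of 2.21 to 78.8, which covers counting error only. KCS17 had 2 and 3 counts in e1e2 air, 9 and 2 in e1e2 ethylene, 7 and 8 in e2e3 air and 4 and 1 in e2e3 ethylene. Its groups overlapped in e1e2 and did not in e2e3. The exact 95% intervals for its ratio of ethylene to air, 0.575 to 6.6 in e1e2 and 0.105 to 1.07 in e2e3, include no change.

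**Figure D2:**
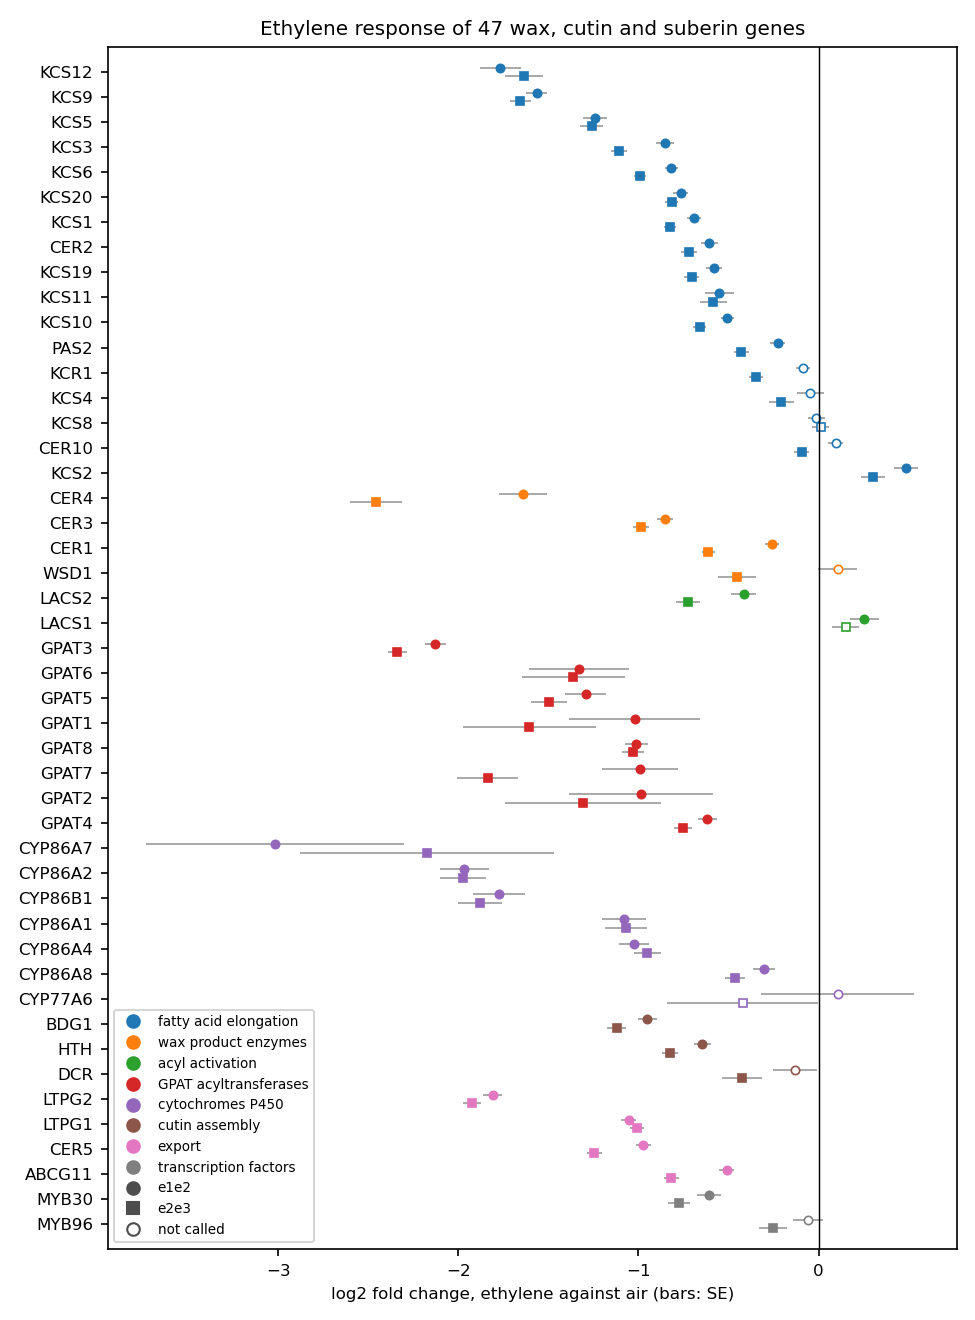
Log2 change from air to ethylene with SE (horizontal axis) of the 47 tested members in e1e2 (circles) and e2e3 (squares), by role group and colour; open symbols did not pass edgeR's test at an adjusted p under 0.05. Most symbols lie left of 0, with GPAT3 at -2.13 and -2.34 and CER4 at -1.64 and -2.46, and KCS2 lies right of 0 in both lines.

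The enzymes that turn elongated chains into wax products changed by very different amounts. Of 5 members, 4 were tested; 3 fell in e1e2 and 4 in e2e3. CER4 (AT4G33790), the reductase that makes primary alcohols, fell most. It had 22.0 and 20.2 CPM in e1e2 air, 6.40 and 7.08 in e1e2 ethylene, 20.8 and 22.0 in e2e3 air, and 3.49 and 4.32 in e2e3 ethylene. The log2 change was -1.64 ± 0.13 in e1e2 and -2.46 ± 0.14 in e2e3 (edgeR adjusted p = 2.02e-25 and 1.87e-40). The air libraries of both lines were alike, at 20.2 to 22.0 CPM, and the lowest levels were those of e2e3 in ethylene.

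CER1 and CER3 act together to form alkanes, the main wax class of Arabidopsis stems. CER1 (AT1G02205) had the highest level per kilobase of the group, with 350.1 and 351 CPM in e1e2 air, 294 and 293 in e1e2 ethylene, 469.6 and 499 in e2e3 air, and 313 and 321 in e2e3 ethylene. It fell in both lines without overlap, with log2 changes of -0.26 ± 0.038 in e1e2 and -0.61 ± 0.036 in e2e3 (edgeR adjusted p = 8.02e-10 and 3.93e-40). CER3 (AT5G57800) fell by 0.85 and 0.99 on the log2 scale. WSD1 (AT5G37300), the wax ester synthase, had 16.8 and 18.0 CPM in e1e2 air, 17.0 and 20.4 in e1e2 ethylene, 21.6 and 20.5 in e2e3 air, and 15.7 and 15.0 in e2e3 ethylene. Its e1e2 groups overlapped, with a change of 0.11 ± 0.11 that did not pass the test (edgeR adjusted p = 0.485), and in e2e3 it fell by 0.45 ± 0.11 (edgeR adjusted p = 0.000116) with both ethylene libraries below both air libraries. MAH1, the midchain hydroxylase that acts on alkanes, had 4 and 3 counts in e1e2 air, 2 and 0 in e1e2 ethylene, 4 and 3 in e2e3 air and 1 and 1 in e2e3 ethylene, and its exact 95% intervals for the ratio of air to ethylene, 0.816 to 42.3 and 0.603 to 31.3, include no change.

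Acyl activation, by which LACS enzymes join fatty acids to coenzyme A, gave calls in opposite directions. LACS2 (AT1G49430), which serves cutin synthesis, had 52.1 and 55.9 CPM in e1e2 air, 39.8 and 41.3 in e1e2 ethylene, 65.6 and 67.0 in e2e3 air, and 41.5 and 38.8 in e2e3 ethylene. It fell without overlap in both lines, with log2 changes of -0.42 ± 0.069 in e1e2 and -0.73 ± 0.065 in e2e3 (edgeR adjusted p = 6.97e-08 and 4.37e-22). LACS1 (AT2G47240), known from both wax and cutin, had 33.4 and 30.7 CPM in e1e2 air, 37.9 and 38.5 in e1e2 ethylene, 33.8 and 35.3 in e2e3 air, and 42.2 and 34.6 in e2e3 ethylene. In e1e2 it rose by 0.25 ± 0.081 (edgeR adjusted p = 0.00679), and in e2e3 the groups overlapped, with a change of 0.15 ± 0.076 (edgeR adjusted p = 0.101). The e1e2 call was lost without e1e2 libraries (edgeR adjusted p = 0.0504 without e1e2 ethylene replicate 2 and 0.123 without e1e2 air replicate 2) and in DESeq2.

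By edgeR all 8 GPAT genes fell in both lines, with medians of -1.02 and -1.43. DESeq2 called GPAT2 in neither line and GPAT1 only in e2e3, and so did the authors' deposited values. GPAT3 (AT4G01950) had the highest level per kilobase of the family and 157 and 153 CPM in e1e2 air, 36.9 and 33.9 in e1e2 ethylene, 209 and 211 in e2e3 air, and 39.8 and 43.3 in e2e3 ethylene. It fell 4.37-fold in e1e2 and 5.06-fold in e2e3, with log2 changes of -2.13 ± 0.057 and -2.34 ± 0.052 (edgeR adjusted p = 1.52e-95 and 5.59e-110). The cutin acyltransferases are GPAT4, GPAT6 and GPAT8. GPAT8 (AT4G00400) had 81.5 and 79.2 CPM in e1e2 air, 40.0 and 39.6 in e1e2 ethylene, 89.4 and 87.0 in e2e3 air, and 47.9 and 38.6 in e2e3 ethylene, and fell, with log2 changes of -1.01 ± 0.065 and -1.03 ± 0.061 (edgeR adjusted p = 8.77e-36 and 1.27e-39). GPAT4 (AT1G01610) fell less, by 0.62 and 0.75 on the log2 scale. GPAT6 (AT2G38110), known from flower cutin, was low, with 4.68 and 4.25 CPM in e1e2 air, 1.75 and 1.79 in e1e2 ethylene, 2.37 and 5.12 in e2e3 air, and 1.19 and 1.81 in e2e3 ethylene. Its changes were -1.33 ± 0.28 and -1.36 ± 0.29 (edgeR adjusted p = 2.19e-05 and 1.71e-05). The ethylene libraries lay below the air libraries in both lines. The 2 e2e3 air libraries of GPAT6, at 33 and 91 counts, stood far apart, and without the second of them the change in e2e3 was -0.66 on the log2 scale (edgeR adjusted p = 0.182).

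The suberin acyltransferases GPAT5 and GPAT7 fell as well. GPAT5 (AT3G11430) had 21.8 and 25.9 CPM in e1e2 air, 10.0 and 9.48 in e1e2 ethylene, 34.5 and 36.7 in e2e3 air, and 13.3 and 12.0 in e2e3 ethylene. It changed by -1.29 ± 0.12 in e1e2 and -1.50 ± 0.099 in e2e3 (edgeR adjusted p = 4.02e-22 and 1.83e-34). GPAT7 (AT5G06090) had 6.36 and 5.83 CPM in e1e2 air, 3.64 and 2.47 in e1e2 ethylene, 12.7 and 13.5 in e2e3 air, and 3.63 and 3.69 in e2e3 ethylene, so that e2e3 in air stood above the other 3 groups. In both lines its ethylene libraries lay below its air libraries, with log2 changes of -0.99 ± 0.21 and -1.84 ± 0.17 (edgeR adjusted p = 2.96e-05 and 1.22e-20). GPAT1 (AT1G06520) had 2.12 and 2.44 CPM in e1e2 air, 0.876 and 1.37 in e1e2 ethylene, 2.30 and 2.59 in e2e3 air, and 1.12 and 0.487 in e2e3 ethylene. GPAT2 (AT1G02390) had 2.30 and 1.65 CPM in e1e2 air, 1.41 and 0.550 in e1e2 ethylene, 2.01 and 1.35 in e2e3 air, and 0.489 and 0.835 in e2e3 ethylene. Both were low, with 24 and 31 counts for GPAT1 and 26 and 21 for GPAT2 in e1e2 air, and their ethylene libraries lay below the air libraries within each line. GPAT1 changed by -1.02 ± 0.37 in e1e2 and -1.61 ± 0.37 in e2e3 (edgeR adjusted p = 0.0171 and 0.000102), and GPAT2 by -0.99 ± 0.40 and -1.31 ± 0.43 (edgeR adjusted p = 0.0396 and 0.00841). The e1e2 call of GPAT1 was lost when a library was left out (edgeR adjusted p = 0.121 without e1e2 air replicate 2 and 0.199 without e1e2 ethylene replicate 1). Both calls of GPAT2 were lost likewise, with edgeR adjusted p = 0.264 without e1e2 air replicate 1 and 0.473 without e1e2 ethylene replicate 2 in e1e2 and 0.115 without e2e3 air replicate 1 and 0.138 without e2e3 ethylene replicate 1 in e2e3.

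Of the 7 cytochromes P450, 6 fell in each line by edgeR, and DESeq2 did not call 1 of them, CYP86A7, in e2e3. CYP86A2 (AT4G00360), a fatty acid ω-hydroxylase of cutin, had the highest level per kilobase, with 226 and 186 CPM in e1e2 air, 55.4 and 49.7 in e1e2 ethylene, 246 and 276 in e2e3 air, and 64.9 and 68.3 in e2e3 ethylene. It fell 3.91-fold in e1e2 and 3.93-fold in e2e3 without overlap, with log2 changes of -1.97 ± 0.14 and -1.97 ± 0.13 (edgeR adjusted p = 0.000195 and 0.000116). In the authors' deposited DESeq2 values the adjusted p of CYP86A2 was 3.87e-32 in e1e2 and 5.34e-158 in e2e3. The size of its p thus depends on the method. Opposite-strand genes cover 41.0% of the exonic bases of CYP86A2. CYP86A4 (AT1G01600) had 45.7 and 45.0 CPM in e1e2 air, 22.6 and 21.9 in e1e2 ethylene, 48.6 and 53.2 in e2e3 air, and 24.9 and 27.9 in e2e3 ethylene and changed by -1.03 ± 0.083 and -0.95 ± 0.076 (edgeR adjusted p = 7.71e-26 and 2.78e-26). CYP86A4 and GPAT4 lie tail to tail on chromosome 1 with 355 bases and no gene between them, and both fell. CYP86A2 and GPAT8 lie 10929 bases apart on chromosome 4, with 3 genes between them. CYP86A8 (AT2G45970) fell by 0.30 and 0.47 on the log2 scale.

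CYP86A1 and CYP86B1 are the hydroxylases of root suberin. CYP86A1 (AT5G58860, also known as HORST) had 20.9 and 20.4 CPM in e1e2 air, 9.56 and 9.96 in e1e2 ethylene, 24.9 and 19.4 in e2e3 air, and 10.5 and 10.4 in e2e3 ethylene, and changed by -1.08 ± 0.12 and -1.07 ± 0.12 (edgeR adjusted p = 6.92e-15 and 3.96e-16). CYP86B1 (AT5G23190, also known as RALPH) had 17.1 and 17.4 CPM in e1e2 air, 4.31 and 5.77 in e1e2 ethylene, 27.2 and 24.8 in e2e3 air, and 6.71 and 7.38 in e2e3 ethylene. It fell 3.42-fold in e1e2 and 3.68-fold in e2e3, with log2 changes of -1.77 ± 0.15 and -1.88 ± 0.12 (edgeR adjusted p = 6.56e-25 and 1.05e-34), and all 4 ethylene libraries lay below all 4 air libraries. CYP86A7 (AT1G63710) was close to undetected in ethylene, with 11 and 17 counts in e1e2 air, 3 and 1 in e1e2 ethylene, 10 and 16 in e2e3 air and 4 and 1 in e2e3 ethylene. The ratio of air to ethylene was 8.57 in e1e2 with an exact 95% interval of 3.0 to 33.6, and 4.71 in e2e3 with 1.78 to 15.7. Its fitted changes were -3.02 ± 0.72 and -2.18 ± 0.71 (edgeR adjusted p = 0.000183 and 0.00686), and the e2e3 call was lost without e2e3 libraries (edgeR adjusted p = 0.0652 without e2e3 air replicate 2 and 0.132 without e2e3 ethylene replicate 2). Without e2e3 ethylene replicate 2 the fitted change was -1.52. CYP77A6 (AT3G10570), the midchain hydroxylase of flower cutin, had 1.41 and 0.945 CPM in e1e2 air, 1.08 and 1.44 in e1e2 ethylene, 1.29 and 1.24 in e2e3 air, and 0.908 and 0.974 in e2e3 ethylene. Its groups overlapped in e1e2, it passed the test in neither line, and 132 counts in all give it little precision.

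Cutin assembly was represented by HTH (AT1G72970), a dehydrogenase-like protein that leads to dicarboxylic acids, BDG1 (AT1G64670), an epidermal hydrolase, and DCR (AT5G23940), an acyltransferase. HTH had 166 and 153 CPM in e1e2 air, 101 and 102 in e1e2 ethylene, 188 and 189 in e2e3 air, and 103 and 111 in e2e3 ethylene, and changed by -0.65 ± 0.047 and -0.82 ± 0.045 (edgeR adjusted p = 7.99e-30 and 1.54e-44). BDG1 had 117 and 121 CPM in e1e2 air, 61.8 and 60.9 in e1e2 ethylene, 148 and 158 in e2e3 air, and 70.1 and 70.6 in e2e3 ethylene, and changed by -0.95 ± 0.054 and -1.12 ± 0.050 (edgeR adjusted p = 2.31e-42 and 2.31e-57). All ethylene libraries of both genes lay below all air libraries. DCR changed by -0.13 ± 0.12 in e1e2 (edgeR adjusted p = 0.432) and by -0.43 ± 0.11 in e2e3 (edgeR adjusted p = 0.000792).

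The 4 exporters fell in both lines. LTPG1 (AT1G27950) and LTPG2 (AT3G43720) are lipid transfer proteins held at the cell surface by a lipid anchor. LTPG1 had the highest level per kilobase of all members, a mean of 332 CPM per kilobase in e1e2 air, with 318 and 335 CPM in e1e2 air, 159 and 155 in e1e2 ethylene, 365 and 396 in e2e3 air, and 186 and 193 in e2e3 ethylene. It changed by -1.05 ± 0.041 and -1.01 ± 0.039 (edgeR adjusted p = 5.99e-67 and 5.77e-67). LTPG2 had 175 and 165 CPM in e1e2 air, 47.6 and 49.4 in e1e2 ethylene, 206 and 213 in e2e3 air, and 53.6 and 57.0 in e2e3 ethylene, a fall of 3.50-fold in e1e2 and 3.79-fold in e2e3. Its log2 changes were -1.81 ± 0.053 and -1.92 ± 0.050 (edgeR adjusted p = 3.58e-88 and 2.7e-98). CER5 (AT1G51500, also known as ABCG12) and ABCG11 (AT1G17840) are half-transporters that carry wax and cutin precursors across the plasma membrane. CER5 had 247 and 239.7 CPM in e1e2 air, 122 and 126 in e1e2 ethylene, 299.8 and 297 in e2e3 air, and 124 and 128 in e2e3 ethylene. Its log2 changes were -0.97 ± 0.042 in e1e2 and -1.25 ± 0.041 in e2e3 (edgeR adjusted p = 1.48e-58 and 6.3e-79). ABCG11 had 200.4 and 197 CPM in e1e2 air, 140.3 and 139 in e1e2 ethylene, 244 and 242 in e2e3 air, and 141 and 135 in e2e3 ethylene. It fell, with log2 changes of -0.51 ± 0.043 and -0.82 ± 0.041 (edgeR adjusted p = 3.45e-24 and 3.58e-49), and opposite-strand genes cover 32.0% of its exonic bases. No ethylene library of any of the 4 exporters reached an air library.

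Among the transcription factors, MYB30 (AT3G28910) and MYB96 (AT5G62470), activators of wax synthesis, were tested. MYB30 had 57.9 and 67.4 CPM in e1e2 air, 42.2 and 40.2 in e1e2 ethylene, 76.5 and 82.2 in e2e3 air, and 43.5 and 49.5 in e2e3 ethylene. It fell without overlap, with log2 changes of -0.61 ± 0.068 in e1e2 and -0.77 ± 0.062 in e2e3 (edgeR adjusted p = 2.33e-15 and 7.26e-26). MYB96 had 33.8 and 34.7 CPM in e1e2 air, 32.2 and 33.6 in e1e2 ethylene, 39.2 and 37.1 in e2e3 air, and 31.4 and 32.4 in e2e3 ethylene. It changed by -0.059 ± 0.081 in e1e2 (edgeR adjusted p = 0.606) and by -0.25 ± 0.077 in e2e3 (edgeR adjusted p = 0.00351), where without e2e3 ethylene replicate 1 the edgeR adjusted p was 0.0519. The e2e3 call of MYB96 was also lost in DESeq2 and with scaling by library size alone. SHN1, an ERF factor that activates cutin genes, was listed at 0 in all libraries, and MYB106 had 1 count, in e1e2 air. An opposite-strand gene covers 76.0% of the exonic bases of MYB106.

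**Figure D3:**
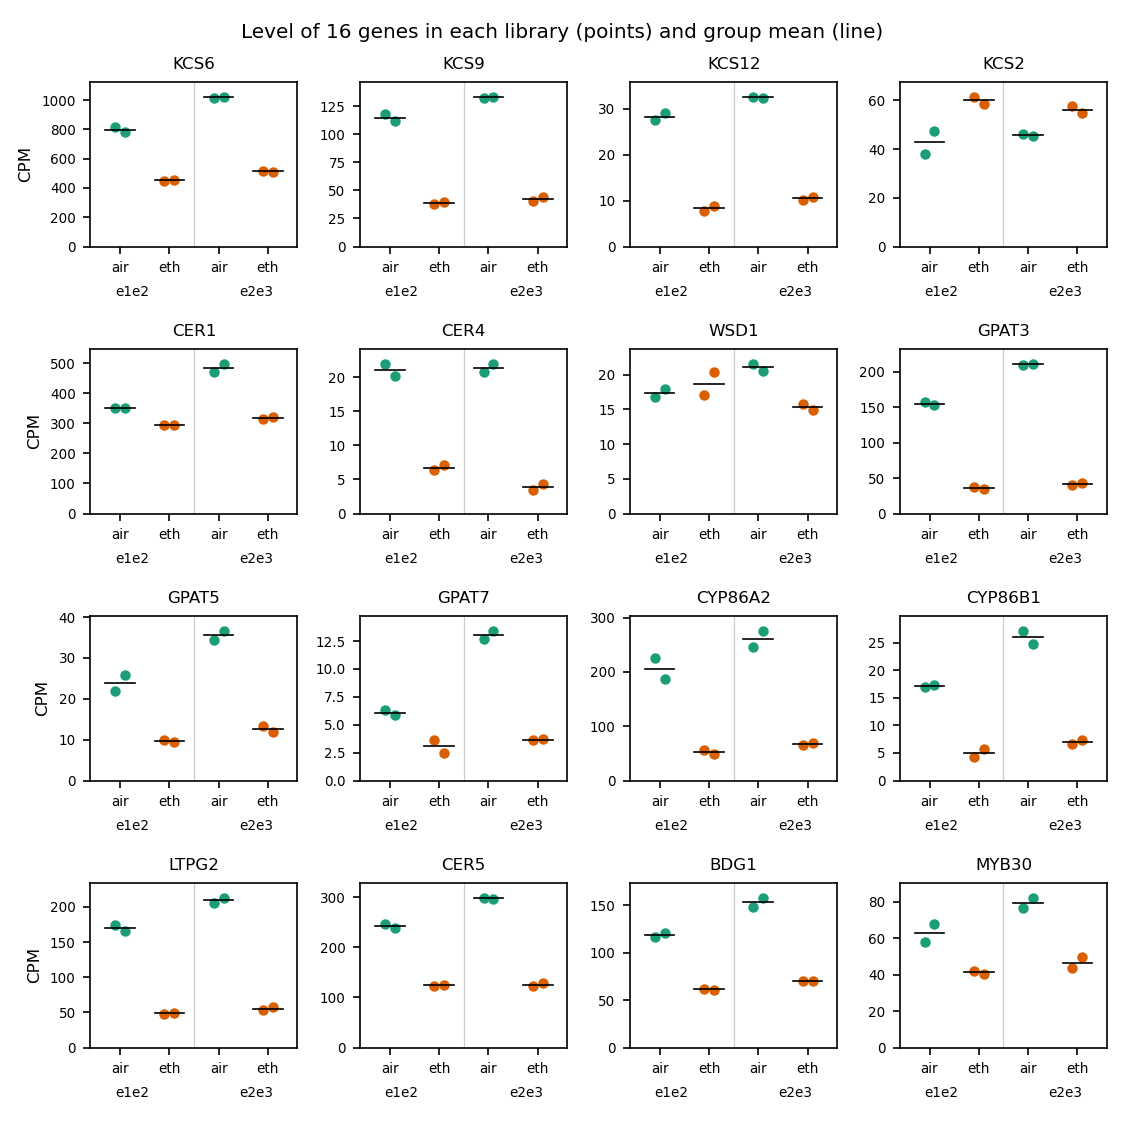
Level in CPM (vertical axes, each starting at 0) of 16 members in each of the 8 libraries (points, air in green and ethylene in orange) with the mean of each pair (line), with e1e2 left and e2e3 right of the grey divider. Ethylene points lie below air points except in KCS2, where they lie above, and in WSD1, where the e1e2 points overlap.

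Split by polymer, 10 of 12 cutin-linked members fell in e1e2 and 11 in e2e3, with medians of -0.80 and -0.89. Of 6 suberin-linked members, 5 fell in each line and KCS2 rose, with medians of -1.03 and -1.28. These 2 lists overlap in no gene. The endodermis, where suberin is laid down in roots, was represented by 8 markers, CASP1 to CASP5, ESB1, MYB36 and SCR. ESB1 had 30 counts over the 8 libraries and adds little to the sum, and an opposite-strand gene covers 84.3% of its exonic bases. The summed level was 729.5 and 714.8 CPM in e1e2 air, 576.4 and 593.2 in e1e2 ethylene, 862.9 and 860.1 in e2e3 air, and 692.0 and 680.2 in e2e3 ethylene. Of the 7 tested, 4 were lower in ethylene in e1e2 and 5 in e2e3, and 0 were higher. CASP5 fell by 1.04 and 1.06 on the log2 scale, and SCR, which specifies the endodermis, changed by 0.11 and 0.11 without passing the test. Root cap markers (SMB, BRN1, BRN2) summed to 7.33 and 7.77 CPM in e1e2 air, 5.86 and 6.18 in e1e2 ethylene, 4.89 and 5.29 in e2e3 air, and 4.54 and 4.59 in e2e3 ethylene. None of the 3 passed the test for ethylene in either line. The guard cell markers FAMA and MYB60 summed to 11.4 to 17.3 CPM, with 1 of 2 called higher in each line. The larger log2 change was that of MYB60 in e1e2, at 0.46, and that of FAMA in e2e3, at 0.57. In the authors' deposited values neither gene passed at an adjusted p under 0.05 in either line. The part of endodermal cell content in the suberin-linked changes was not tested.

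The lines were also compared within each gas. In air, 29 of 47 members were higher in e2e3 and 0 were lower, where 9% of all tested genes were higher and 5.83% lower. By edgeR, 0 members were lower in air at an unadjusted p under 0.05 as well, and DESeq2 called 26 higher and 0 lower, with 5 given no adjusted p. The median log2 difference was 0.27, against 0.01 for all genes, and 43 of 47 estimates lay above 0, as did 52.2% of all genes. GPAT7 differed most, with 6.36 and 5.83 CPM in e1e2 air and 12.7 and 13.5 CPM in e2e3 air. Its difference was 1.11 ± 0.16 (edgeR adjusted p = 4.26e-09). CYP86B1 followed with 0.59 ± 0.11, GPAT5 with 0.57 ± 0.091 and CER1 with 0.47 ± 0.036 (edgeR adjusted p = 4.43e-06, 7.35e-08 and 6.1e-26). For each of these 4 genes both e2e3 air libraries lay above both e1e2 air libraries. Of the 6 suberin-linked members, GPAT7, CYP86B1, GPAT5 and KCS20 were higher in e2e3 air, 66.7% against 61.7% of all members tested. CYP86A1 and KCS2 differed by 0.086 ± 0.11 and 0.089 ± 0.071 without passing the test (edgeR adjusted p = 0.678 and 0.471). All 4 exporters and all 3 cutin assembly members were higher in e2e3 air, and 12 of the 17 tested elongation members were. In the same libraries the 3 epidermal markers and 5 of 7 tested endodermal markers were higher in e2e3, by 0.15 to 0.25 and, for the 7, by 0.02 to 0.36. The 3 root cap markers lay below 0, from -1.26 to -0.25, with 1 called lower. Both guard cell markers lay below 0, at -0.39 and -0.09, and 0 were called. The part of any of these cell types in the result was not tested. Leaving out a library gave 26 to 29 higher calls. The call of CYP86A8 was lost at an edgeR adjusted p of 0.062 without e1e2 air replicate 2 and 0.0751 without e2e3 air replicate 2. DCR stayed called only without either e2e3 ethylene library (edgeR adjusted p otherwise up to 0.308), and KCS5 only without those or e1e2 air replicate 2 (up to 0.376).

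In ethylene, 11 members were higher in e2e3 and 1 was lower, where 4.24% and 2.32% of all tested genes were. The median log2 difference of the members was 0.095. In the same libraries 5 of 7 tested endodermal markers and 1 of 3 epidermal markers were higher in e2e3, with median differences of 0.21 and 0.12. Of the 3 root cap and 2 guard cell markers 0 were called, with median differences of -0.46 and -0.06. The part of any of these cell types in the result was not tested. KCS6, KCS20 and LTPG1 were called in every alternative fit, with differences of 0.18 ± 0.035, 0.24 ± 0.040 and 0.27 ± 0.042 (edgeR adjusted p = 3.69e-05, 8.38e-07 and 8.62e-08). The other 8 higher calls were KCS1, KCS19, CER1, CER2, GPAT3, GPAT4, BDG1 and LTPG2, and each was lost when a library was left out. The edgeR adjusted p was 0.051 without e1e2 ethylene replicate 1 for KCS1, 0.129 without e1e2 ethylene replicate 1 for KCS19, 0.0864 without e2e3 ethylene replicate 2 and 0.22 without e1e2 ethylene replicate 2 for CER2 and 0.341 without e1e2 ethylene replicate 2 and 0.353 without e2e3 ethylene replicate 2 for GPAT3. It was 0.0506 without e2e3 air replicate 2, 0.0925 without e2e3 ethylene replicate 1, 0.285 without e2e3 ethylene replicate 2 and 0.478 without e1e2 ethylene replicate 1 for GPAT4 and 0.114 without e1e2 ethylene replicate 2, 0.277 without e1e2 ethylene replicate 1 and 0.386 without e2e3 ethylene replicate 2 for LTPG2. CER1 and BDG1 were lost without any 1 of the 4 ethylene libraries, at an edgeR adjusted p of up to 0.342 and 0.168. CER4 was the lower one, at 6.40 and 7.08 CPM in e1e2 and 3.49 and 4.32 CPM in e2e3, a difference of -0.79 ± 0.18 (edgeR adjusted p = 0.000915), which without e2e3 ethylene replicate 1 had an edgeR adjusted p of 0.0732. The number of higher calls was 5 without e1e2 ethylene replicate 1, 7 without e1e2 ethylene replicate 2 and 6 without e2e3 ethylene replicate 2, and DESeq2 gave 6 higher calls and no adjusted p for 13 members, CER4 among them.

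**Figure D4:**
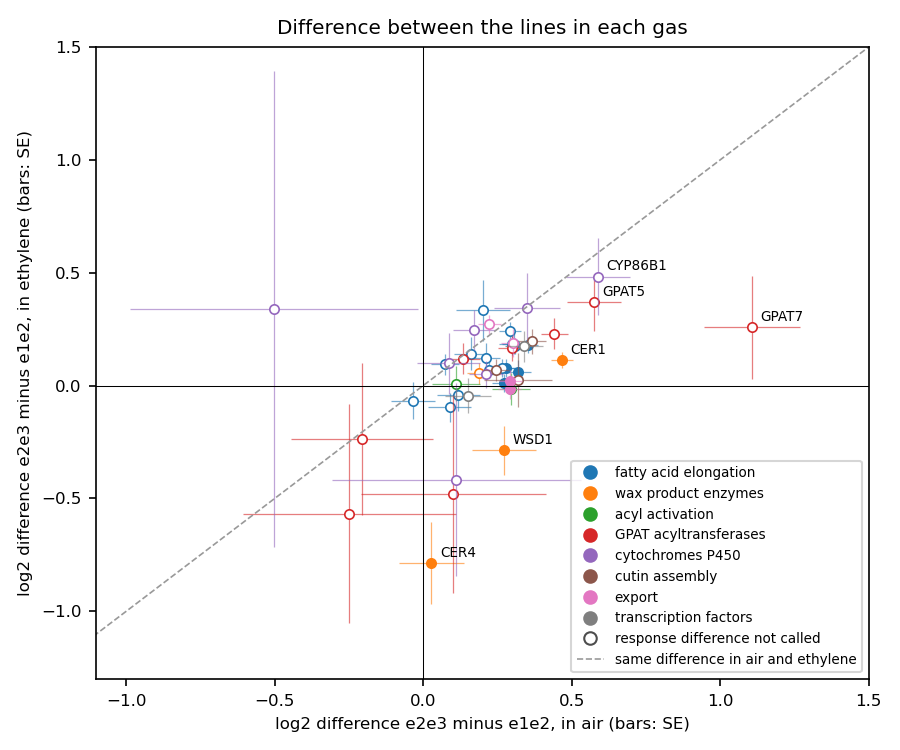
Log2 difference e2e3 minus e1e2 with SE in air (horizontal axis) and in ethylene (vertical axis) for the 47 tested members, coloured by role group; filled points were called in the response difference. Most points lie right of 0 and below the dashed line of equal differences, with GPAT7 at 1.11 in air and CER4 at -0.79 in ethylene.

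The response difference asks whether ethylene changed a gene by a different amount in e2e3 than in e1e2, and it uses the same 8 libraries as the comparisons above. It was lower than 0 for 10 of 47 members and higher for 0, where 1.27% of all tested genes were lower and 1.54% higher. By edgeR, 0 members were higher and 19 lower at an unadjusted p under 0.05, and DESeq2 called 0 higher and 5 lower, with 24 given no adjusted p. The median was -0.16, against -0.01 for all genes, and 41 of 47 estimates lay below 0, as did 52.8% of all genes. The members called are 4 elongation genes (KCS3, KCS6, KCR1, PAS2), 3 wax product enzymes (CER1, CER4, WSD1), 2 exporters (CER5, ABCG11) and LACS2. No GPAT or cytochrome P450 member was called. All 8 GPAT estimates lay below 0, with a median of -0.21, and 4 of the 7 cytochrome P450 estimates did. GPAT7 had -0.85 ± 0.28, which fell short of the threshold (edgeR adjusted p = 0.0784).

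CER1, ABCG11 and KCR1 were called in every alternative fit that gave them an adjusted p. Their differences were -0.36 ± 0.052, -0.31 ± 0.060 and -0.26 ± 0.056 (edgeR adjusted p = 1.22e-07, 0.000165 and 0.00111). For these genes the lines differed more in air than in ethylene: CER1 stood 0.47 higher in e2e3 in air and 0.11 higher in ethylene, ABCG11 0.29 and -0.015, and KCR1 0.27 and 0.013, all on the log2 scale. KCS3, CER5 and PAS2 had the same form, with 0.32, 0.29 and 0.28 in air and 0.061, 0.022 and 0.077 in ethylene. CER4 had the opposite form, with alike air levels and lower ethylene levels in e2e3, and the largest difference of the 10, -0.81 ± 0.21 (edgeR adjusted p = 0.0115). WSD1 stood 0.27 higher in e2e3 in air and -0.29 in ethylene, neither of which passed the test alone, and its difference was -0.56 ± 0.15 (edgeR adjusted p = 0.0191).

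The calls of 7 of these 10 genes were lost in at least 1 fit that left out a library. Without e1e2 ethylene replicate 2, 3 members were called, and without e1e2 ethylene replicate 1 or any 1 of the 4 e2e3 libraries, 6 were. Calls lost were those of CER4 (edgeR adjusted p = 0.0541 without e2e3 air replicate 2, 0.114 without e1e2 ethylene replicate 2 and 0.144 without e2e3 ethylene replicate 1), CER5 (0.0559 without e1e2 ethylene replicate 2), KCS3 (0.0788 without e1e2 ethylene replicate 2, 0.0837 without e2e3 air replicate 1, 0.113 without e1e2 ethylene replicate 1 and 0.119 without e2e3 ethylene replicate 1) and WSD1 (0.0721 without e1e2 air replicate 1, 0.0832 without e2e3 air replicate 1, 0.118 without e2e3 ethylene replicate 2 and 0.272 without e1e2 ethylene replicate 2). KCS6 stayed called only without e1e2 air replicate 1 (edgeR adjusted p otherwise up to 0.234), PAS2 only without either e1e2 air library (up to 0.273), and LACS2 only without e1e2 air replicate 2 or e2e3 ethylene replicate 1 (up to 0.263). LACS2, at 0.0466 in edgeR, was also lost in all 6 other fits that gave it an adjusted p. The calls of KCS3 and PAS2 were lost in DESeq2, and that of PAS2 also without a low-count filter.

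Another 49 wax, cutin and suberin genes, which are no members, were listed and 34 were tested. In e1e2, 7 rose and 16 fell, and in e2e3, 5 rose and 18 fell, with medians of -0.52 and -0.80. The rises were 20.6% and 14.7% of the 34, where 18.3% and 20.3% of all tested genes rose, and the falls 47.1% and 52.9%, where 20.9% and 23.6% fell. Locus AT5G41900 fell most, with 23.5 and 24.0 CPM in e1e2 air, 1.01 and 1.03 in e1e2 ethylene, 29.9 and 29.0 in e2e3 air, and 1.12 and 2.58 in e2e3 ethylene. It had 571 counts in e1e2 air and 30 in ethylene, a ratio of 23.3 with an exact 95% interval of 16.1 to 34.9, and 931 and 53 in e2e3, a ratio of 15.9 with 12.1 to 21.4. Both intervals cover counting error only, and not the gap between the e2e3 ethylene libraries, at 1.12 and 2.58 CPM. MYB53 (AT5G65230) and MYB41 (AT4G28110), the latter an activator of suberin genes, followed with -3.69 and -2.70 on the log2 scale in e2e3 and -1.82 and -2.05 in e1e2. Both were low, with 115 counts for MYB53 and 264 for MYB41 over the 8 libraries, which gives these sizes little precision. In the authors' deposited DESeq2 values MYB53 did not pass in e1e2 (adjusted p = 0.0733). The largest rises were those of CER26 (AT4G13840), a relative of CER2, of the suberin transporter ABCG1 (AT2G39350) and of the alcohol-forming reductase FAR1 (AT5G22500). They rose by 1.24, 0.80 and 0.49 in e1e2 and by 1.34, 0.62 and 0.49 in e2e3. ASFT (AT5G41040), which adds ferulate to suberin, was the 1 gene of the list called in the response difference, at -0.30 ± 0.076 (edgeR adjusted p = 0.00847). In air 14 of these genes (41.2%) were higher in e2e3 and 2 (5.88%) lower, where 9% and 5.83% of all tested genes were.

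The authors' deposited table of genes called in wild type lists 1242 genes, none with a change under 2-fold, of which 59.2% are lower in ethylene. It holds 13 members, all of them lower, and 12 of the other pathway genes, 11 of them lower. Since the table holds genes past a size threshold only, a member missing from it has no wild-type value here. In the authors' deposited table the wild-type log2 change was -3.07 for CER4, -2.37 for CYP86B1 and -1.91 for GPAT3. WSD1 stood at -2.53 in wild type in the authors' deposited table, against 0.11 in e1e2 and -0.45 in e2e3 in the authors' own values. The wild-type and mutant changes were not tested against each other.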

How the data were processed

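Poly(A) RNA of 8 whole-seedling libraries (4 groups of 2) was used. The authors deposited raw counts per gene, made with featureCounts 2.0.1 on Araport11 genes without a strand setting, per the file headers. By the program's default, reads over bases shared with an opposite-strand gene are left out. The level of such a gene therefore rests on its other bases. The submitters' processing notes name the build TAIR10, read checking and trimming with FastQC and Trim Galore, the aligner STAR, and DESeq2; no aligner settings are given. The authors' deposited tables also hold log2 fold changes with p-values for both lines and log2 changes for wild-type genes past a size threshold.

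Counts of all 36799 genes were fitted in 1 model of 4 groups with edgeR 4.0.16 (R 4.3.3): TMM scaling, the default filter by group, robust quasi-likelihood F-tests and Benjamini-Hochberg adjustment over 20193 genes, with 4 residual degrees of freedom and a median prior of 218, so the p-values rest mostly on spread shared by genes. The script was tested on simulated data. DESeq2 1.42.0, 7 other settings and the leaving out of each library were the alternatives. Depth was 11522823 to 18601837 counts per library, and exact intervals (95%) cover counting error only.

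The members and the lists were chosen with earlier results of these data known. Given with every library are members called with a log2 change of at least 1 in ethylene, or a line difference of at least 0.58, or in the response difference, and the highest per kilobase in each of 8 role groups; from other pathway genes, the 3 largest called changes each way. Other members named were chosen after their values were seen, as those of smallest p in their role group or as exceptions to it. In a count table of TAIR10 coordinates, 99.4% of 27444 protein-coding genes had the same start and end as in the TAIR10.1 RefSeq table.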

Additional observations from a re-analysis of the deposited data

Results flagged for a closer look

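By edgeR's test of the difference itself, the ethylene response differed between the lines for 10 of 47 tested members. Of all tested genes, 1.27% were lower and 1.54% higher in this test. DESeq2 called 5 of the 10, did not call KCS3 or PAS2, and gave CER4, WSD1 and LACS2 no adjusted p. Among the 10, the difference (e2e3 minus e1e2, log2) was largest for CER4, at -0.813, followed by WSD1 at -0.558 and CER1 at -0.355. LACS2 had -0.311, ABCG11 -0.306, CER5 -0.271, KCR1 -0.26, KCS3 -0.258, PAS2 -0.202 and KCS6 -0.173. All 10 are negative, so that the fall was larger in e2e3, or, for WSD1 and KCR1, called in e2e3 and not in e1e2.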

How the results depend on the processing

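No result changed direction under an alternative. The count of members higher in e1e2 ethylene (2 in edgeR) was 1 in DESeq2 and 1 to 2 when 1 library was left out. The count higher in e2e3 ethylene (1) was 2 with scaling by library size alone and 1 to 2 with a library left out. The count lower in the response difference (10) was 5 in DESeq2 and 3 to 11 with a library left out. The count higher in e2e3 than in e1e2 in ethylene (11) was 6 with library size alone, 6 in DESeq2 and 5 to 13 with a library left out, and the count lower there (1) was 2 with a filter of at least 10 counts, 0 in DESeq2, which gave CER4 no adjusted p, and 0 to 1 with a library left out. Scaling by library size alone moved the median of all genes by 0.066 in e1e2 and 0.082 in e2e3. In every alternative that gave an adjusted p (16 for most calls, fewer for the 10 response differences and for CER4 between lines in ethylene), 106 of 134 member calls held: 36 of 39 for ethylene in e1e2, 38 of 44 in e2e3, 26 of 29 between lines in air, 3 of 12 in ethylene and 3 of 10 in the response difference. The cause of these shifts was not tested. The replicate numbers did not pair the libraries (correlations of deviations from -0.03 to 0.001), and with the replicate number as a block the counts were 2 higher and 37 lower in e1e2 ethylene, 1 and 42 in e2e3 ethylene, 0 and 9 in the response difference, 28 and 0 between lines in air, and 9 and 1 in ethylene. SHN1, MAH1, KCS17 and KCS18 were below what this depth can test, as was MYB106, whose exonic bases lie mostly under an opposite-strand gene.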
